A study of Mus musculus with 8 samples.

Results

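The genes described here are the mouse orthologs of 8 genes on the long arm of human chromosome 17 (17q): Nme1, Nme2, Birc5, Ppm1d, Trim37, Brip1, Jmjd6 and Srsf1. They were chosen by name, as genes of human 17q that lie on the distal part of mouse chromosome 11, and every probe set annotated to 1 of them alone was used. This gave 22 of 34958 single-gene probe sets and 8 of 18194 named genes. Total RNA was taken from 8 neuroblastomas that arose in LSL-MYCN;Dbh-iCre animals, in which Cre under control of Dbh, a gene of noradrenergic cells, removes a stop cassette in front of human MYCN at the ROSA26 locus. All 8 tumors carried both transgenes and were untreated. Tumors 7 and 8 arose in the superior cervical ganglion (a neck ganglion of the sympathetic chain) and tumors 1 to 6 in the adrenal, with 1 Affymetrix Mouse 430 version 2 array per tumor. The strain and age of each mouse are not given in the labels, and whether 2 tumors could share an animal is not stated either, so p-values cover only the spread among these tumors. Normal adrenals and DNA copy number were not analysed here, so levels are described among tumors.

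Extra copies of 17q are the most frequent segmental gain of human neuroblastoma and go with poor outcome, and the distal part of mouse chromosome 11 holds the matching genes in one block. A gained arm can raise the RNA of many neighbours slightly, while each gene also follows its own control, such as the cell cycle. MYCN, the driver of these tumors, binds the E-box CACGTG, so the genes can also differ in whether their promoters carry that sequence. Among the 8 genes, Nme1 and Nme2 encode nucleoside diphosphate kinases, which supply nucleoside triphosphates. Birc5 encodes survivin, a subunit of the chromosomal passenger complex of mitosis, and Brip1 a helicase that works with BRCA1 in repair of crosslinked DNA. Ppm1d encodes a phosphatase that switches off p53 and checkpoint signaling, and Trim37 a ubiquitin ligase that limits centrosome protein assembly. Jmjd6 encodes an oxygenase that hydroxylates lysines of splicing proteins, and Srsf1 a founding member of the SR splicing factors.

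The promoters of Nme1, Nme2 and Jmjd6 are shown because Nme2 and Jmjd6 varied together with their chromosomal block, as described further on, and because Nme1 alone among the 8 genes carried the E-box. RefSeq start sites (build GRCm38.p6) gave 10 promoter windows for the 8 genes, each of 250 bases before to 50 bases after a start, 5′ to 3′ on the strand of the gene. The search used CACGTG, which reads the same on both strands, and capitals mark each match.
Nme1 upstream start, chr11:93968223-93968522, minus strand: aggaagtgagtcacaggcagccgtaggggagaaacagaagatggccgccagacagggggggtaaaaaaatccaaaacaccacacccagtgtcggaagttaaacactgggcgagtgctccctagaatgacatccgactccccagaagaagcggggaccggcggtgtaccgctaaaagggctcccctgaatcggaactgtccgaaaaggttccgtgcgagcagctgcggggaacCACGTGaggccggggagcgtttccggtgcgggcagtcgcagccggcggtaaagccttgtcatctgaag
Nme1 downstream start, chr11:93967976-93968275, minus strand: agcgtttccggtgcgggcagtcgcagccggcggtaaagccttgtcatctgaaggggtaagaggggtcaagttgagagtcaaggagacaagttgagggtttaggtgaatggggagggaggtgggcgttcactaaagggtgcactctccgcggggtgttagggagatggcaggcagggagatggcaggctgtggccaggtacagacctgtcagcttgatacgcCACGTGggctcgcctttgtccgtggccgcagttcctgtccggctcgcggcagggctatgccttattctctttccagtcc
Nme2 downstream start, chr11:93955734-93956033, minus strand: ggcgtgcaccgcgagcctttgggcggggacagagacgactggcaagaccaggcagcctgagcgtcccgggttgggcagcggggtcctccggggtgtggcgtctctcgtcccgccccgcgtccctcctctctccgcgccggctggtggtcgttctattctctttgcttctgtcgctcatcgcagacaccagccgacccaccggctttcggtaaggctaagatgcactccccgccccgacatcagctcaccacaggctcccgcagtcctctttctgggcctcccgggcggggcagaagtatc
Jmjd6, chr11:116843400-116843699, minus strand: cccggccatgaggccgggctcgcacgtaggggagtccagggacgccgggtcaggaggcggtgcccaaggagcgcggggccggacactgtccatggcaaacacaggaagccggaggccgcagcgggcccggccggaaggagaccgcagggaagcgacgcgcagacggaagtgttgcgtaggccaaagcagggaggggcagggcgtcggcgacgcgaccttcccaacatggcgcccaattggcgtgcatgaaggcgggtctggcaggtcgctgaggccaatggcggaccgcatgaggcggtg
Each Nme1 window held 1 E-box, beginning 18 bases and 29 bases before its start, and the other 8 windows held none. Of 32851 windows of this length in the reference, 7.15% held CACGTG. The CHR element of cell cycle promoters, searched as TTTGAA and its reverse complement TTCAAA, was in none of the 10 windows, against 17.9% of all windows. A match describes letters and shows no binding.

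The arrays were of like signal, with upper quartiles between 8.85 and 8.93 on the log2 scale. A probe set was called detected above a limit set by 86 probe sets of sensory receptor genes (smell, pheromone and taste), whose 95th percentile lay between 6.71 and 7.21. The 3′ minus 5′ signal of Gapdh, which grows as RNA gets shorter, was 5.51 in tumor 1 and between 0.47 and 1.57 elsewhere. Tumor 6 held liver transcripts, with a mean over 7 liver markers of 5.51 above the gene averages, against -1.02 to -0.53 elsewhere. In tumor 7 the mean over 9 markers of noradrenergic neuroblasts was -2.84, against 0.18 to 0.58 in the others, with the transcription factor gene Gata3 at 5.22. The markers differed in this. Th was 10.36 in tumor 7 and 13.62 to 14.25 elsewhere, but Isl1 was 13.48 against 13.69 to 14.05. Hand1, at 7.46, was not at its lowest level of 7.34 there. The skeletal muscle markers of tumor 7 had a mean of 1.61, with 0.80 in tumor 8 and -0.58 to -0.22 in the adrenal tumors. The part of these transcripts in the levels of the 8 genes was not tested, apart from the results given without single tumors.

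Transcripts of 7 of the 8 genes were detected in every tumor, Brip1 being the exception. Levels cannot be compared between probe sets, so each gene is described among the tumors only. Tumor 5 was the low tumor of the group: it had the lowest level of 6 genes (14.4% of all tested genes were lowest there), namely Nme1, Nme2, Birc5, Ppm1d, Trim37 and Jmjd6. The highest level of 3 genes each fell in tumor 2 (Nme1, Nme2, Ppm1d) and in tumor 7 (Trim37, Jmjd6, Srsf1). Over the 8 genes, the median difference of a tumor from the median of the other tumors was -0.45 in tumor 5, where all 8 genes lay below 0, and 0.28 in tumor 7, where 7 of 8 lay above. Across all 16254 tested genes this median was -0.03 in tumor 5 and -0.07 in tumor 7. Tumor 5 also had the lowest fibroblast markers, at a mean of -1.67 against -0.30 to 1.24 elsewhere, and their part in the levels of the 8 genes was not tested. In bulk tissue, fewer cells of a type and less RNA per cell cannot be told apart.

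**Figure D1:**
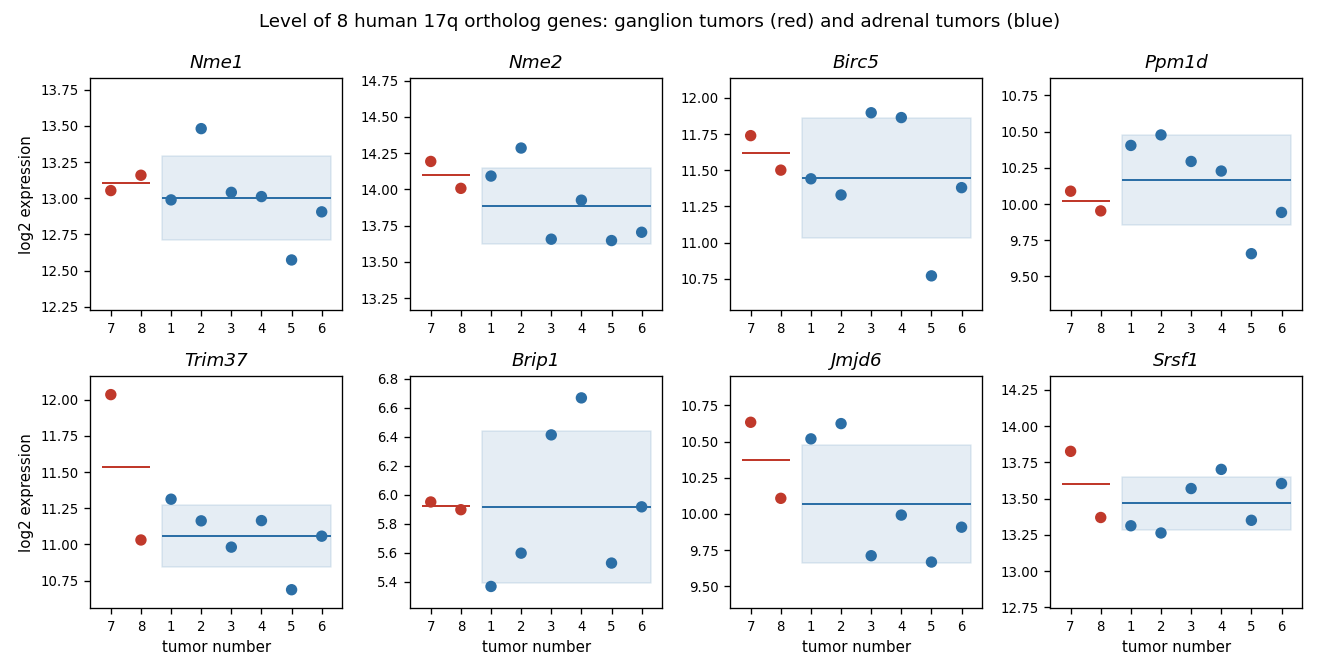
Log2 expression of the 8 genes in each tumor, with ganglion tumors 7 and 8 in red at the left and adrenal tumors 1 to 6 in blue. Lines are group means and the shaded band is 1 SD of the adrenal tumors, and each panel spans the same width on the log2 scale. Tumor 5 is lowest for 6 genes, and tumor 7 stands above all others for Trim37 at 12.03.

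Nme2 had 14.19 and 14.01 in ganglion tumors 7 and 8, against a lowest level of 13.65, a median of 13.81 and a highest level of 14.29 in the adrenal tumors. Tumor 2 was the highest of all, followed by tumors 7 and 1, while adrenal tumors 3, 5 and 6 formed the low end at 13.65 to 13.70. Nme1 had 13.05 and 13.16 in the ganglion tumors, against 12.57, 13.00 and 13.48 as lowest, median and highest adrenal level. Here too tumor 2 was highest and tumor 5 lowest, with the other 6 tumors within 12.91 to 13.16. A further Nme1 probe set, of a class whose probes can bind related sequences, read 11.25 to 11.69 with its highest level in tumor 7. The coding sequences of Nme1 and Nme2 are closely related, so signal shared between their probe sets cannot be separated. Of the other nucleoside diphosphate kinase genes, 4 of 5 listed were tested and none passed the comparison of sites. Among them Nme7, a centrosomal and ciliary family member, was 8.77 in tumor 7 and 9.48 to 10.19 elsewhere. Nme5, a testis and cilia gene, was 6.58 in tumor 7 and 7.44 to 8.47 elsewhere, so both were lowest in the tumor where the second Nme1 probe set was highest.

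Birc5 had 11.74 and 11.50 in the ganglion tumors, against 10.77, 11.41 and 11.90 as lowest, median and highest adrenal level. Tumors 3 and 4 were the high ones (11.90 and 11.86), and tumor 5 lay below every other tumor. Its partners in the chromosomal passenger complex, the kinase gene Aurkb and the scaffold genes Incenp and Cdca8, were detected in all tumors. Aurkb ran between 8.54 and 9.97, Incenp between 11.03 and 12.25 and Cdca8 between 11.12 and 12.06, each with its highest level in tumor 1. Survivin also belongs to the inhibitor of apoptosis family, and 6 of 7 listed genes of that family and its antagonists were tested. Xiap, the caspase inhibitor, was 10.44 in tumor 7 and 10.93 to 11.59 elsewhere, and Birc3 ran between 7.16 and 8.13.

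Brip1 had 5.95 and 5.90 in the ganglion tumors, against 5.37, 5.76 and 6.67 as lowest, median and highest adrenal level. Its only probe set stayed below the receptor-based limit in all 8 tumors, so these values lie within the background range, although above the limit of 5 used for testing. Within that range tumors 4 and 3 were highest, at 6.67 and 6.41, the same tumors that were highest for Birc5. Of its pathway, Topbp1, which activates the replication checkpoint, ran between 10.48 and 11.68, and Brca1, its namesake partner on the same block of chromosome 11, reached 10.25. Both were highest in tumor 3 and lowest in tumor 5. Bard1, the partner of Brca1, was detected in no tumor, with levels of 5.21 to 5.97.

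Ppm1d had 10.09 and 9.95 in the ganglion tumors, against 9.66, 10.26 and 10.48 as lowest, median and highest adrenal level. Tumors 2 and 1 were high and tumor 5 low. Its second probe set was flatter, at 7.87 to 8.16, and again lowest in tumor 5. Of the checkpoint kinase genes, Chek2 was 9.26 in tumor 7 and 7.93 to 8.70 elsewhere, and Atr was 9.57 in tumor 7 and 8.39 to 9.12 elsewhere. Atm and Chek1, named after their values were seen, were also highest in tumor 7, but closely followed, at 9.53 against 9.52 in tumor 3 for Atm and 10.38 against 10.36 in tumor 1 for Chek1. In all, 7 of the 9 tested p53 and checkpoint genes had their highest level in tumor 7, against 17.3% of all tested genes, and none of the 9 passed the comparison of sites. Ppm1d itself was at neither end of its range in that tumor.

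Trim37 had 1 tumor set apart from the rest. It had 12.03 in tumor 7 and 11.03 in tumor 8, against 10.69, 11.11 and 11.31 as lowest, median and highest adrenal level. The mean of the 7 tumors other than tumor 7 was 11.06 ± 0.20 (SD, n = 7). Of its 5 probe sets, 4 were highest in tumor 7, with 10.34, 10.30 and 9.82 there on the further ones. The remaining one was highest in tumor 2, at 9.25, where tumor 7 had 9.24. Probe sets of this gene agreed only in part, with r between -0.04 and 0.89 over the 8 tumors for pairs of them. Of 8 centriole duplication genes, which Trim37 is tied to through the centrosome, none passed the comparison of sites. Plk4, the kinase that starts duplication, was 11.38 in tumor 7 and 11.39 to 12.60 elsewhere.

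Jmjd6 had 10.63 and 10.11 in the ganglion tumors, against 9.67, 9.95 and 10.62 as lowest, median and highest adrenal level. The tumors fell into a high set of 7, 2 and 1 at 10.52 to 10.63 and a low set of 3, 4, 5, 6 and 8 at 9.67 to 10.11. Tumors 1, 7 and 2 also had the largest 3′ minus 5′ signal of Gapdh, at 5.51, 1.57 and 1.14 against 0.47 to 0.93 elsewhere. For actin, tumor 5 of the low set had 1.35, above tumor 2 at 1.03. The part of RNA length in the Jmjd6 levels was not tested. A second Jmjd6 probe set, at 8.44 to 9.82, was also high in tumor 2 and low in tumor 5, but had tumor 1 at 8.66. Its last probe set was near background, at 6.27 to 6.90, and passed the detection limit in 1 tumor. U2af2, the splicing factor gene whose product is a Jmjd6 substrate, was nearly level at 11.13 to 11.39. Luc7l2, another gene of this kind, was 10.93 in tumor 7, with the next lowest level of 11.35 in tumor 8.

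Srsf1 was level on its brightest probe set and far from level on others. The brightest had 13.83 and 13.37 in the ganglion tumors, against 13.26, 13.46 and 13.70 as lowest, median and highest adrenal level. The probe set with the widest range also had its highest level in ganglion tumor 7, and had 9.45 in ganglion tumor 8, with 6.11, 7.61, 9.97, 9.75, 8.42 and 9.90 in adrenal tumors 1 to 6. Tumor 1 was thus lowest, with tumors 2 and 5 next, and its value lay under the detection limit of 7.16 on that array, so that its distance from the others is not exact. A second probe set gave the same order at the low end, with 9.76, 10.82 and 11.38 in tumors 1, 2 and 5 and 11.96 to 12.47 in the rest. The 2 probe sets had r = 0.99 with each other over the 8 tumors. On those probe sets tumor 1, the tumor with the Gapdh gap of 5.51, was low, and tumors 2 and 5, with gaps of 1.14 and 0.93, had the next largest among adrenal tumors, where the others had 0.54 to 0.62. The 3′ minus 5′ signal of actin was likewise 2.77, 1.03 and 1.35 in tumors 1, 2 and 5 and 0.64 to 0.87 in the other adrenal tumors, while ganglion tumor 7, where these probe sets were high, had 1.57 for Gapdh and 1.85 for actin. The part of RNA length in this pattern was not tested. The dimmest of the 7 probe sets lay at 3.94 to 4.24 and was detected nowhere. Of 12 tested SR proteins and their kinases, all were detected in every tumor: Srsf3 ran between 13.09 and 13.70 and Tra2b between 12.70 and 13.25, both lowest in tumor 2.

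**Figure D2:**
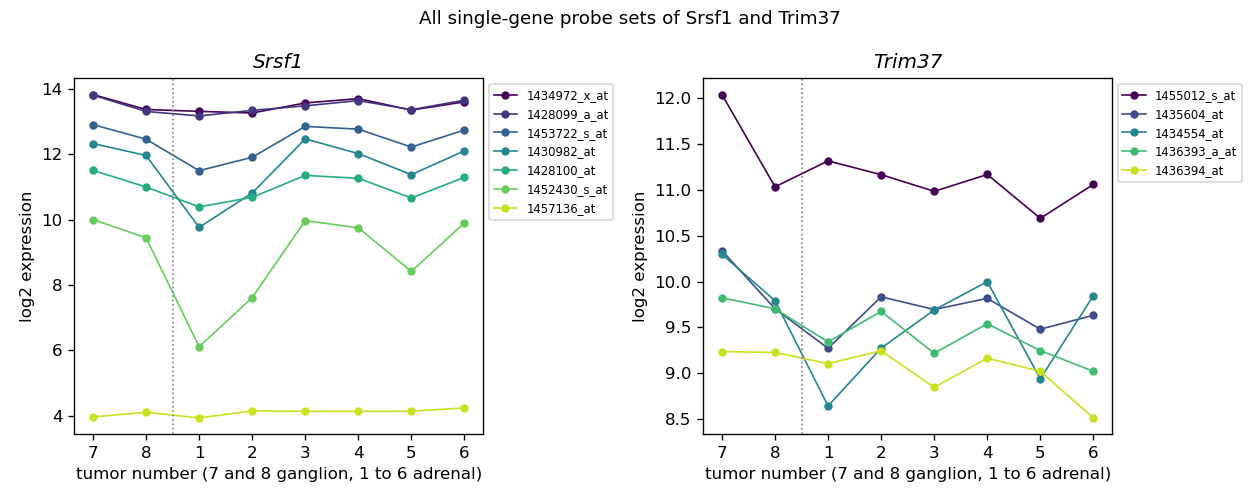
Log2 expression of the 7 probe sets of Srsf1 and the 5 of Trim37 in each tumor, with ganglion tumors 7 and 8 left of the dotted line and adrenal tumors 1 to 6 right of it; each line is 1 probe set and only joins its points. For Srsf1 the widest-ranging probe set drops to 6.11 in tumor 1 while the brightest stays between 13.26 and 13.83; for Trim37, 4 of 5 probe sets are highest in tumor 7.

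The site of origin was the only contrast in the labels, and none of the 8 genes passed it. The values of both sites overlapped for all 8 genes, as they did for 95.6% of all tested genes. With limma across all 16254 genes and Benjamini-Hochberg adjustment, 3 genes were called, all higher in ganglion tumors, which is 0.0185% of those tested. At an unadjusted p under 0.05 there were 761 genes (4.68%), none of them among the 8. The genes called were the neuronal lipid-binding gene Clvs2 and the muscle genes Acta1 and Tnnt3, named here after their values were seen, and none lies on the block. The levels of Clvs2 (6.13 and 6.36 in tumors 7 and 8) and Tnnt3 (6.23 and 6.02) lay under the detection limit even in the ganglion tumors. The largest difference among the 8 genes was that of Trim37, which averaged 11.53 in ganglion tumors and 11.06 in adrenal tumors, a log2 difference of 0.47 ± 0.26 (SE, limma adjusted p = 0.90). This value rests on tumor 7: without it the difference was -0.03 (limma adjusted p = 1.00), and without tumor 8 it was 0.97 (limma adjusted p = 0.054). Jmjd6 differed by 0.30 ± 0.29 and Nme2 by 0.22 ± 0.20 (limma adjusted p = 0.94 for Jmjd6 and 0.93 for Nme2). Both also depend on tumor 7: without it Jmjd6 differed by 0.04 and Nme2 by 0.12, and without tumor 8 by 0.56 and 0.31. Birc5, at 0.17 over all tumors, was at 0.05 without tumor 7, and Srsf1, at 0.13, was at -0.10. Ppm1d was the only gene with a lower mean in ganglion tumors, by -0.15 ± 0.22, and Brip1 was at 0.01 ± 0.34. The 95% interval of the difference spanned -0.24 and 0.67 for Nme2 and -0.37 and 0.59 for Nme1, which is the precision that 2 ganglion tumors gave. The median difference of the 8 genes was 0.15, against 0.09 over the 639 other genes of their chromosomal block and -0.03 over all genes tested. Without tumor 7 these medians were 0.01 for the 8 genes, 0.05 for the block and 0.01 for all genes.

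**Figure D3:**
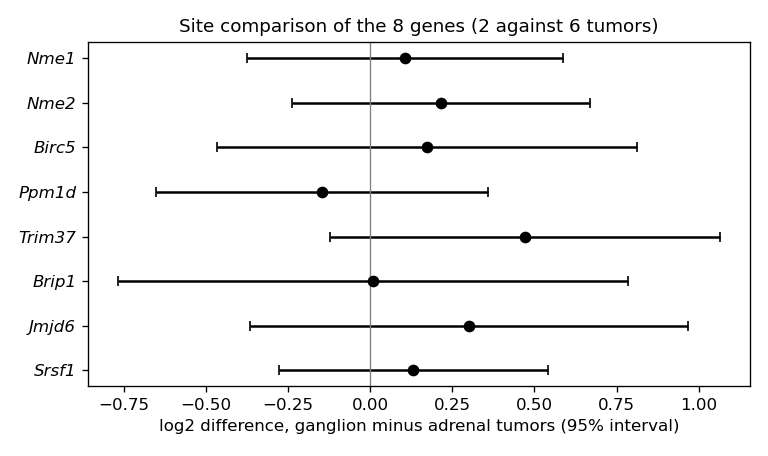
Log2 difference between the 2 ganglion and 6 adrenal tumors for each of the 8 genes, from limma; points are estimates and bars 95% intervals, with positive values higher in ganglion tumors. All 8 intervals cross 0, from Trim37 at 0.47 to Ppm1d at -0.15.

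Tested probe set by probe set, 21 of the 22 passed the filter on low values, and none was called. In that fit 5 of 30285 probe sets were called (0.0165%), and 1212 (4.00%) had an unadjusted p under 0.05. A Trim37 probe set was the single one of the 21 with such a p, at a log2 difference of 0.42 ± 0.18 (limma adjusted p = 0.99). Its values of 9.82 and 9.70 in tumors 7 and 8 lay above those of all adrenal tumors, which reached 9.68. Of all tested genes, with 1 probe set each, 4.42% likewise had no overlap of the sites, in either direction. None of 17 tested genes of a wider 17q panel passed either. Of these, 2 had an unadjusted p under 0.05, both encoding transcription factors: Tbx2, named after its values were seen, at 8.31 and 9.31 in ganglion tumors and 9.11 to 10.11 in adrenal tumors, and Sox9, at 7.39 and 7.07 against 6.79 to 7.02. Sox9 lay under the detection limit in adrenal tumors 1, 2, 3 and 5.

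Along the chromosome, the median level of the block around the 8 genes differed between tumors. It was taken as all tested genes of chromosome 11 from Nf1 to the distal end in RefSeq order, 639 without the 8. For each gene the difference of a tumor from the median of the other tumors was taken, and the median over genes is given, less the same median over all 16254 genes. In tumor 2 this was 0.09, 0.05, 0.08, 0.12, 0.20, 0.10, 0.19 and 0.22 in successive eighths of the block, 79 or 80 genes each. All 8 eighths were thus above 0, and 179 of the 639 genes (28.0%) had their highest level in tumor 2, against 16.3% of all tested genes. In tumor 7 this was the case for 188 (29.4%), against 17.3% of all. The 682 genes of chromosome 11 before the block lay at -0.00 in tumor 2 as a whole. Their last eighth, from Rpa1 to Wsb1, was already at 0.19 in tumor 2 and the one before it at 0.08, so the rise in tumor 2 began before Nf1. In tumor 7 all eighths were also above 0, at 0.09 to 0.28, but the genes before the block were raised too, at 0.08 as a whole and 0.27 in the eighth from H2aw to Myocd. Tumor 6 was below 0 in all eighths, at -0.13 to -0.02, and tumor 3 as well, at -0.19 to -0.02. In tumor 8 all eighths were above 0, at 0.013 to 0.084. In tumor 1 the block was at 0.12 before that subtraction, against 0.13 over all genes. Medians of this size also occurred elsewhere in the genome: before subtraction of the median over all genes, chromosome 1 as a whole was at 0.21 in tumor 2, against 0.19 for the block and 0.13 for the whole of chromosome 11, which ranked 3 of 19 autosomes. In tumor 7 chromosome 11 ranked 2 and in tumor 8 it ranked 3. It ranked 13, 17 and 12 in tumors 1, 3 and 4, and was the lowest of the 19 in tumors 5 and 6. These are descriptions of 1 array per tumor, with no test.

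**Figure D4:**
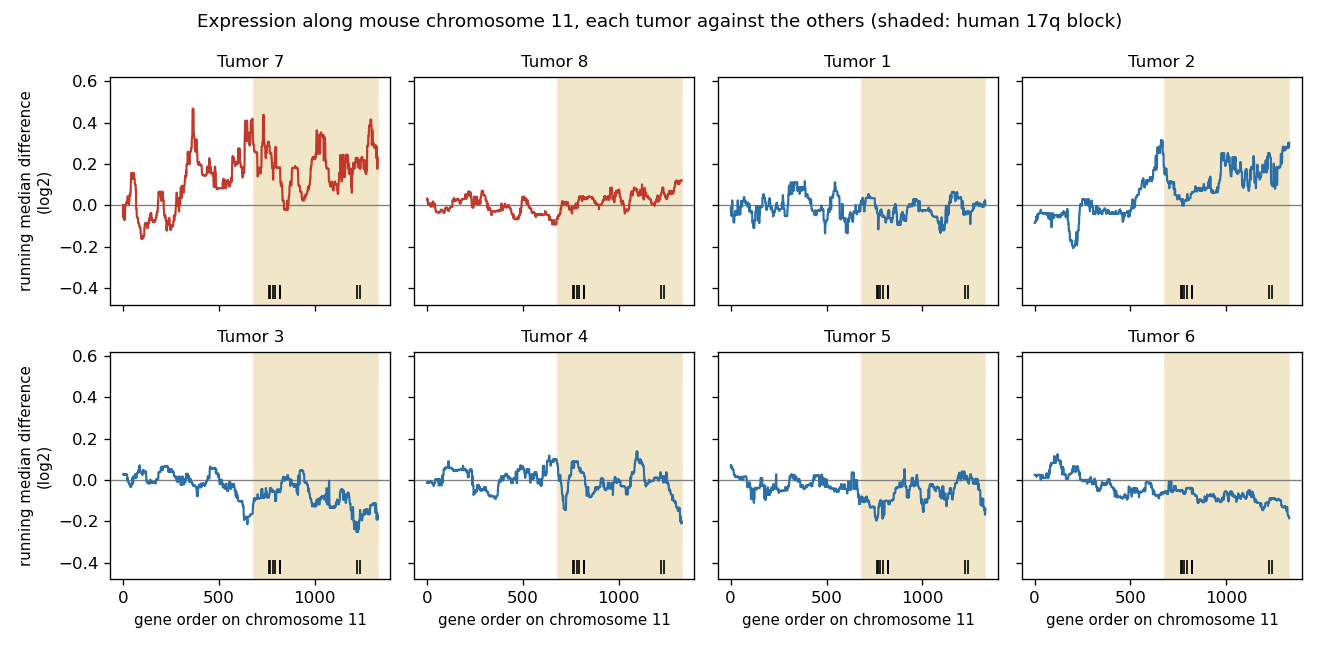
Running median over 51 neighbouring tested genes of the log2 difference between a tumor and the median of the others, less the median over all genes, along chromosome 11 in gene order; windows are shorter at the ends, the shading marks the block from Nf1 to the distal end, and black ticks mark the 8 genes. Ganglion tumors 7 and 8 come first. The line of tumor 2 steps up before the shaded block, dips near the first cluster of ticks and rises again, with medians of 0.05 to 0.22 in the eighths of the block.

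The 8 genes sit in 2 clusters on the block, and the levels of their neighbours are given for each. Ppm1d, Brip1, Trim37, Srsf1, Nme2 and Nme1 lie at positions 80, 85, 99, 113, 137 and 138 of 647 tested genes, with Nme2 and Nme1 adjacent. Jmjd6 and Birc5 lie at positions 541 and 555. In tumor 2 the 20 nearest tested neighbours had a median difference from the other tumors of 0.25 around Jmjd6 and 0.32 around Birc5, against 0.04 around Srsf1, 0.07 around Ppm1d, 0.12 around Brip1, 0.13 around Nme2 and 0.19 around Trim37. Jmjd6 itself was 0.63 above the other tumors there, whereas Birc5 was at -0.17, so neighbours on the arm went opposite ways. Around Nme1 the neighbours were at 0.11, and Nme1 itself was at 0.47. In tumor 5 the neighbours of the first cluster lay at -0.24 to -0.09, where Nme1 was at -0.47 and Ppm1d at -0.57. In tumor 7 Trim37 was at 0.98 and its neighbours at 0.12.

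Across the 8 tumors, Nme2 and Jmjd6 had the highest correlations with the block. Each gene was set against 3 measures per tumor: the block median without the 8 genes and here without subtraction of the median over all genes, the mean of 22 mitosis genes and the mean of 21 MYC target genes, the last 2 from outside chromosome 11 and centered per gene. Of these 24 relations, 3 passed an exact permutation test after Benjamini-Hochberg adjustment. Nme2 had r = 0.93 with the block (exact two-sided p = 0.0017, adjusted 0.037) and a rank correlation of 0.90 (exact p = 0.0046, adjusted 0.11). Jmjd6 had r = 0.89 (exact p = 0.0053, adjusted 0.042) and a rank correlation of 0.86 (exact p = 0.011, adjusted 0.12). Its second probe set had a lower r of 0.54 with the block, and its last one, near background, had 0.86, both given as a description. Without the 2 tumors farthest from the median of the block, tumors 2 and 6, r was 0.90 for Nme2 (exact p = 0.021) and 0.93 for Jmjd6 (exact p = 0.0042). Between the 2 genes r was 0.96 (exact p = 0.0010, adjusted 0.028 over 28 pairs) with a rank correlation of 0.98 (exact p = 0.0004, adjusted 0.011), and r was 0.94 without the 2 tumors farthest from the Nme2 median. Trim37 and Jmjd6 were the only other pair to pass, with r = 0.75 (exact p = 0.0031, adjusted 0.044) and a rank correlation of 0.83 (exact p = 0.015, adjusted 0.20). The adjacent pair Nme1 and Nme2 had r = 0.74 (exact p = 0.021, adjusted 0.19). Nme1 had r = 0.70 with the block (exact p = 0.040, adjusted 0.17), and Birc5 had r = 0.04 (exact p = 0.92, adjusted 0.96). Over 12 alternatives r stayed between 0.87 and 0.95 for Nme2 and between 0.84 and 0.93 for Jmjd6, but the adjusted p was under 0.05 in only 3 of them for Nme2 (0.0062 to 0.20 over all 12) and in 1 for Jmjd6 (0.043 to 0.20). Without tumor 2 it was 0.20 for both. Tumors 1, 2 and 7, the highest for both genes and for the block median, also had the largest 3′ minus 5′ signal of Gapdh. The part of RNA length in these correlations was not tested. Without tumor 1, where that signal was 5.51, r was 0.91 for Nme2 and 0.85 for Jmjd6. With the median over all genes subtracted, an alternative chosen after seeing the data, Nme2 passed (r = 0.93, exact p = 0.00032, adjusted 0.0062) and Jmjd6 did not (r = 0.85, exact p = 0.0072, adjusted 0.058).

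The highest correlations with the mitosis genes were those of Birc5 and Brip1, and neither passed the adjusted test. Brip1 was detected in no tumor, so its relation is one of values in the background range. Birc5 had r = 0.71 with the mitosis list (exact p = 0.049, adjusted 0.17) and Brip1 had r = 0.72 (exact p = 0.043, adjusted 0.17). Without tumors 2 and 3, the farthest on that list, r was 0.76 for Birc5 (exact p = 0.096) and 0.66 for Brip1 (exact p = 0.13). The list mean was 0.62 in tumor 3, where 20 of the 22 genes had their highest level (10.96% of all tested genes did), and -0.51 in tumor 2. Nme2 had r = -0.50 with this list and Jmjd6 r = -0.47 (exact p = 0.21 and 0.24, adjusted 0.43 for both). Among the mitosis genes Mki67, a marker of dividing cells, was 13.39 in tumor 3 and 11.77 in tumor 2, and Ube2c, of the anaphase-promoting complex, ran between 12.03 and 13.62.

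Srsf1 was the remaining gene to pass, with r = 0.79 to the MYC target list (exact p = 0.0031, adjusted 0.037) and a rank correlation of 0.83 (exact p = 0.015, adjusted 0.12). Trim37 had a higher r of 0.88 (exact p = 0.036, adjusted 0.17) but a rank correlation of 0.33 (exact p = 0.43). Tumor 7 had a list mean of 0.72, with -0.25 to 0.02 elsewhere. It held the highest level of 18 of the 21 listed genes, against 17.3% of all tested genes, among them the nucleolar gene Ncl at 13.95 and the RNA polymerase I subunit gene Polr1b at 10.29. Without tumors 5 and 7, r was 0.84 for Srsf1 (exact p = 0.056) and -0.76 for Trim37 (exact p = 0.093), so the relation of Trim37 does not hold without them. Of the 2, tumor 7 carried it: r was 0.27 without tumor 7 alone (exact p = 0.58) and 0.88 without tumor 5 alone (exact p = 0.14). For Srsf1 the adjusted p was under 0.05 in 1 of 12 alternatives. With the mean of all its probe sets, Srsf1 had r = 0.47 and no longer passed (exact p = 0.16, adjusted 0.45). Nme1, the gene with E-boxes in both promoter windows, had r = 0.10 with the MYC target list (exact p = 0.66, adjusted 0.82). This r was 0.35 with the mean of both Nme1 probe sets (exact p = 0.30, adjusted 0.45) and 0.65 for the dimmer probe set alone, given as a description.

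**Figure D5:**
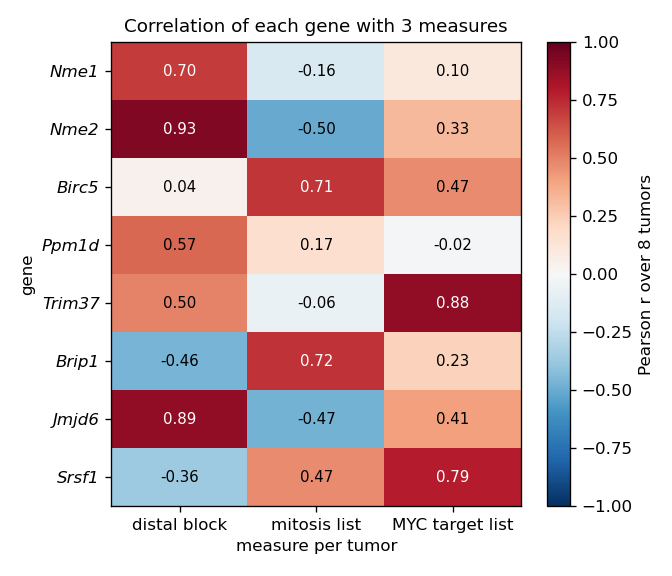
Pearson r over the 8 tumors between each of the 8 genes (rows) and the block median, the mitosis list mean and the MYC target list mean (columns); red is positive and blue negative. The strongest with the block are Nme2 at 0.93 and Jmjd6 at 0.89, whereas Birc5 is at 0.04 with the block and 0.71 with the mitosis list.

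The genes most like each of the 8 over all tumors are given as a description, by Pearson r over 8 tumors among 16253 other genes. Nme2 was most like Abcc4 (r = 0.98), Tmem101 (0.98) and Fam104a (0.97), of which the last 2 lie on the same block. Of its 100 most like genes, 36 were on the block, which holds 3.98% of tested genes. For Jmjd6 the count was 27 of 100, for Nme1 13, for Trim37 8, for Birc5 and Brip1 7 each, for Ppm1d 6 and for Srsf1 2. Nme1 was most like Tubd1 (r = 0.96), a tubulin gene of the block with 7.81 in tumor 2 and 6.52 in tumor 5, and next like B230110C06Rik and 0610038B21Rik (r = 0.95 each). The last 2 lay under the detection limit in every tumor, and Tubd1 did in tumors 1, 3 and 5. Birc5 was most like Cdr2 (r = 0.95), Tk1 (0.95), the thymidine kinase gene of S phase, which is on the block as well, and Ncbp3 (0.94). Brip1 was most like the mitotic phosphatase gene Cdc25b (r = 0.95), Zbtb6 (0.94) and Top2a (0.93), the topoisomerase gene of dividing cells on the block. Trim37 was most like Ddx10 (r = 0.99), Ddx51 (0.99) and Noc4l (0.99), of ribosome assembly and off chromosome 11. Srsf1 was most like Ss18 (r = 0.98), Lsm11 (0.97) and Pfas (0.95), a purine synthesis gene with 10.69 in tumor 7 and 8.65 in tumor 2. Jmjd6 was most like Apba3, Aprt and Ppard (r = 0.98 each), and Ppm1d like Fam181b (0.97), Slfnl1 (0.95) and Cops8 (0.95), none of them on chromosome 11. Slfnl1 lay under the detection limit in every tumor and Fam181b in tumor 5.

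Set against all genes, the spread of the 8 was ordinary on the 1 probe set that stood for each gene. Further probe sets can differ, and those of Srsf1 had an SD of 0.10 to 1.42. On the probe sets that stood for the genes, the SD over tumors was 0.25 for Nme1 and Nme2, 0.20 for Srsf1 and 0.27 for Ppm1d. The median over all tested genes was 0.26. Birc5 (0.36), Trim37 (0.39), Jmjd6 (0.40) and Brip1 (0.44) were wider, at percentiles 70.6, 74.4, 75.2 and 80.2 of all genes.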

How the data were processed

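The authors deposited log2 expression values per probe set for 8 tumors, already normalized between arrays. RMA and Partek 6.6 are named in the notes of the submitters and gcRMA in the Methods; which of them made the values is not settled. No further normalization was applied. Genes were named from the platform annotation, updated through Entrez identifiers (34754 of 34958 single-gene probe sets matched GRCm38.p6); 932 probe sets with several genes and 9211 unnamed ones were left out. The probe set of highest mean stood for its gene. A gene entered the test if it exceeded log2 5 in 2 or more tumors, and was fitted with limma 3.58.1 in R 4.3.3 (ganglion minus adrenal, Benjamini-Hochberg, threshold 0.05). This step was tested on simulated data. Correlations used exact permutation over tumors (Python 3.11.15, scipy 1.17.1). Precision is limited by having 8 arrays. The 8 genes, the gene lists and the tests were chosen with earlier results of these data known. Eighths of the block and counts among most like genes were added after seeing the data. Genes named are the 8, the 3 most like each (Pearson r), every list gene that passed, up to 2 of each list with the highest and 2 with the lowest mean, and block genes that passed (none); others are marked as chosen after their values were seen. Listed genes without a named probe set are not reported.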

Additional observations from a re-analysis of the deposited data

Results flagged for a closer look

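Gaps of 1 tumor to the rest were checked over 23 measures (22 probe sets and the block median), each over all 8 tumors and over the 6 adrenal tumors, which makes 46 checks, of which chance gives about 1 in 20. In 2 of them a tumor lay farther out than Dixon's 95% value allows. On the brightest Trim37 probe set, tumor 7 lay at 12.03 with the nearest tumor at 11.31, a gap of 0.536 of the range over 8 tumors. On the dimmest Srsf1 probe set, which was detected in no tumor, tumor 1 lay at 3.94 with the nearest adrenal tumor at 4.14, a gap of 0.655 of the adrenal range.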

How the results depend on the processing

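No paired analysis was possible because the labels number the tumors 1 to 8 and share no number between sites. None of the 8 genes was called between the sites under any alternative (0 of 8 in each). The count of all genes called, 3, was 1 with genes above 5 in all tumors, 6 with the mean of a gene's probe sets, 5 with every probe set and, chosen after seeing the data, 10 without tumors 6 and 7. Leaving out 1 tumor gave 2 to 954, the highest without tumor 8 and 11 without tumor 7; with 1 ganglion tumor left, it is assumed to vary like the others. Differences kept their sign in all 15 alternatives for Nme1, Nme2, Birc5, Ppm1d and Jmjd6, in 13 for Trim37 and Srsf1 and in 10 for Brip1. The block median of tumor 7 was 0.31 with genes of mean 8 or more, against 0.10, and that of tumor 1 was -0.012 with chromosome 11 genes before the block subtracted, against 0.12. Of 24 relations, 3 passed; 0 passed with quantile normalization or without the 2 farthest tumors, and 0 to 1 without single tumors, where fewer tumors enter; the other causes were not tested. With the median of all genes subtracted, chosen after seeing the data, Nme2 with the block and Srsf1 with MYC targets passed (r = 0.93 and 0.84). Of the 8 genes, 7 were detected in all tumors with the 95th and the 99th percentile, and all 8 at log2 5. Signal over background limits Brip1 most.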
